A study of Mus musculus with 8 samples.

Results

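The proteasome is the protease that degrades ubiquitin-tagged proteins, and the genes described here encode its subunits, its assembly chaperones and the proteins that bind its ends. Members were the rows of the deposited count table whose symbol starts with Psma, Psmb, Psmc, Psmd, Psme, Psmf or Psmg followed by a digit, without Psmb8 and Psmb9. This gave 47 of 14765 genes, of which 46 passed the filter on low counts. The exception was Psma8, a testis form of an alpha subunit in mouse, with 10, 4, 4 and 5 counts in SNI replicates 1 to 4 and 4, 3, 1 and 11 counts in Sham replicates 1 to 4. One gene matched by symbol only: Psmc3ip encodes a partner protein in meiotic recombination and is not a subunit.

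The libraries were poly(A) RNA of PrL tissue (PrL is read as prelimbic cortex) from C57 mice in 2 groups, SNI (4 libraries) and Sham (4 libraries). In pain research SNI denotes spared nerve injury, in which part of the sciatic nerve is cut and pain hypersensitivity follows, with Sham as the operated control. The labels do not state age, sex, the time since surgery or whether every library is a separate mouse, so the spread that p-values measure here may be partly technical. Library totals were 14735602 to 19602487 counts.

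In cells, the 20S core is a barrel of alpha and beta rings that holds the proteolytic sites inside. The 19S cap, made of a base with a ring of ATPases and a lid, recognises ubiquitin, removes it and threads the protein into the barrel. Other caps, such as the PA28 rings encoded by the Psme genes, open the barrel without ubiquitin. Neurons use the proteasome in synaptic protein turnover, and the transcription factor Nfe2l1 raises proteasome genes together when the protease is inhibited.

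No member differed between the groups at the threshold. In edgeR's quasi-likelihood test with Benjamini-Hochberg adjustment over 13911 genes, 0 of the 46 tested members passed an FDR of 0.05, against 5.02% of all genes tested (698, of which 299 were higher and 399 lower in SNI, or 446 and 276 when scaled by library totals only). DESeq2 and limma voom (with quality weights) also called 0 members, where they called 8.37% and 5.9% of all genes. At an edgeR FDR of 0.1, 1 member passed (Psme1), against 9.19% of all genes. At an unadjusted edgeR p under 0.05 there were 6 members, 4 higher and 2 lower in SNI, or 13.0% of members against 21.1% of all genes (10.3% higher and 10.7% lower). In bulk tissue, fewer cells of a type and less RNA per cell cannot be told apart.

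In this edgeR fit, the intervals on the change in RNA level were narrow for most members. They rest on its scaling and on libraries that may not be separate mice. The 95% interval of the log2 fold change (SNI over Sham) lay within 0.5 of 0 for 43 of the 46 members, and within 1 for all 46. Of all 13911 genes tested, 8818 had an interval within 0.5 and 12402 within 1. For the 31 subunits of the 20S and 19S particles the intervals ran from -0.37 to 0.36. The fold changes themselves ran from -0.25 (Psmf1) to 0.46 (Psme2), with a median of 0.05, beside a median of 0.01 over all genes tested. Of the 46, 30 had a fold change above 0 and 16 below it, and 52.2% of all genes tested lay above 0. The count above 0 depended on scaling, with 36 of 46 under upper-quartile scaling and 39 of 46 under library totals, where the median of all genes was 0.03 and 0.06.

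**Figure D1:**
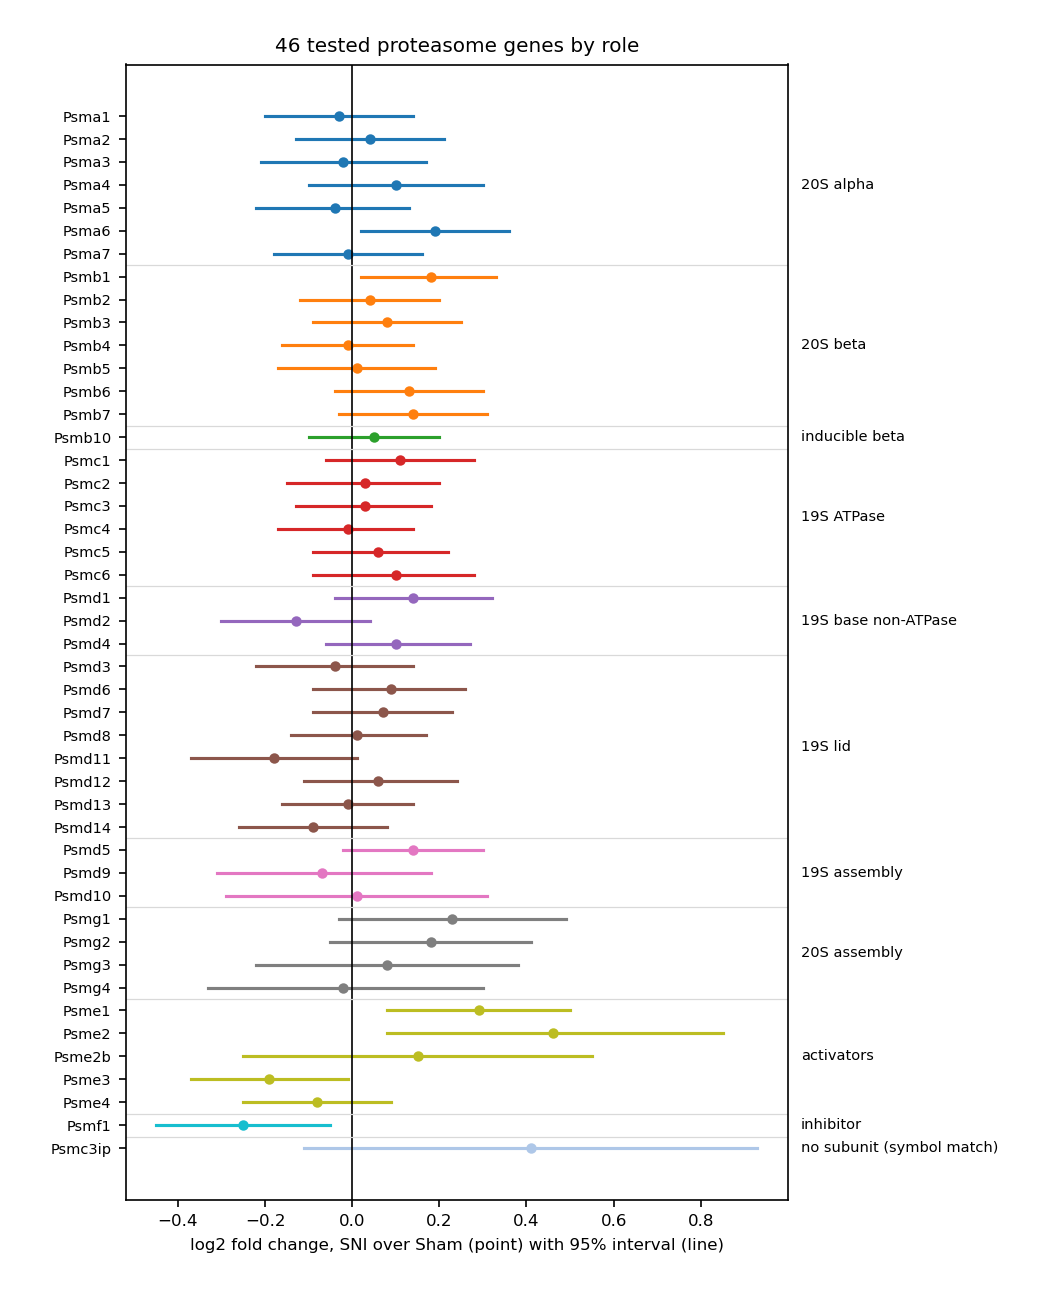
Log2 fold change of SNI over Sham for the 46 tested members (points) with 95% intervals (lines), ordered by role down the page. Most intervals cross 0. Psme2 (0.46) lies highest and Psmf1 (-0.25) lowest, and neither passed the threshold.

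The alpha subunits form the outer rings of the core and its gate. Their 7 tested genes had log2 fold changes from -0.04 (Psma5) to 0.19 (Psma6), with a median of -0.01. Psma6 had 94.4, 116, 95.2 and 97.3 CPM (counts scaled for library size with TMM) in SNI replicates 1 to 4, against 88.4, 90.6, 86.4 and 87.9 CPM in Sham replicates 1 to 4. The 4 SNI values lay above the 4 Sham values, and SNI replicate 2 stood above the rest of its group. Psma6 had a log2 fold change of 0.19 ± 0.0808 (SE), with an edgeR adjusted p of 0.188, and of 0.11 without SNI replicate 2.

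Psma5 had 69.6, 72.4, 62.6 and 67.9 CPM in the SNI libraries, against 74.6, 76.2, 64.8 and 65.3 CPM in the Sham libraries, and its groups overlapped. Separation of all 4 SNI values from all 4 Sham values held for 12.7% of all genes tested, and for 4 of the 46 members (Psma6, Psmb1, Psmg1 and Psme1), each with SNI higher. The share of all genes with SNI higher in this way was 5.64%.

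The beta subunits form the inner rings. Psmb5, Psmb6 and Psmb7 carry the proteolytic sites, which cut after hydrophobic, acidic and basic residues in that order. Psmb5 had 97.7, 98.8, 97.5 and 115 CPM in SNI replicates 1 to 4, against 113, 97.8, 98.8 and 95.5 CPM in Sham replicates 1 to 4. Each group held 1 library above the other 3, and the means were 102 ± 8.33 CPM in SNI and 101 ± 8.05 CPM in Sham (SD, n = 4 libraries each). The 95% interval of its log2 fold change ran from -0.17 to 0.19.

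Psmb6 had 127, 135, 114 and 118 CPM in the SNI libraries, against 123, 114, 109 and 107 CPM in the Sham libraries. Psmb7 had 87.4, 96.3, 78.9 and 85.3 CPM in the SNI libraries, against 73.8, 79.5, 82.5 and 80.7 CPM in the Sham libraries. Both overlapped between groups, with log2 fold changes of 0.13 and 0.14 and edgeR adjusted p of 0.383 and 0.342, and 0.08 for each without SNI replicate 2. Exons of Psmb7 overlap those of Nek6 on the opposite strand (log2 fold change 0.17), and no source used here says whether counting used strand. The annotation also holds processed pseudogenes of Psmb5, Psmb6 and Psmb7, so the split of reads between these copies is uncertain.

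Among the beta subunits without a proteolytic site, Psmb1 had the highest log2 fold change, 0.18 ± 0.0729 (SE, edgeR adjusted p = 0.172). It had 157, 157, 166 and 157 CPM in SNI replicates 1 to 4, against 149, 145, 133 and 137 CPM in Sham replicates 1 to 4, and the groups did not overlap. Psmb4 was the lowest of this role, with 161, 174, 168 and 166 CPM in the SNI libraries, against 177, 169, 167 and 161 CPM in the Sham libraries. Its log2 fold change of -0.01 turned to 0.01 with upper-quartile scaling and to 0.04 with library totals.

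Psmb10 is the inducible subunit that takes the place of Psmb7 in the immunoproteasome, the form made after interferon exposure. It had 66.0, 62.8, 64.8 and 59.7 CPM in SNI replicates 1 to 4, against 61.4, 60.4, 60.9 and 62.1 CPM in Sham replicates 1 to 4. The groups overlapped, and the 95% interval of the log2 fold change was -0.10 to 0.20. The difference log2 Psmb10 minus log2 Psmb7 averaged -0.454 ± 0.144 in SNI and -0.369 ± 0.0735 in Sham (SD, n = 4 libraries each). An exact two-sided permutation test over 70 assignments of the libraries gave p = 0.343 for this ratio, where 0.0286 is the smallest possible. Psmb11, the thymic subunit, had no row in the count table and so could not be analysed.

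**Figure D2:**
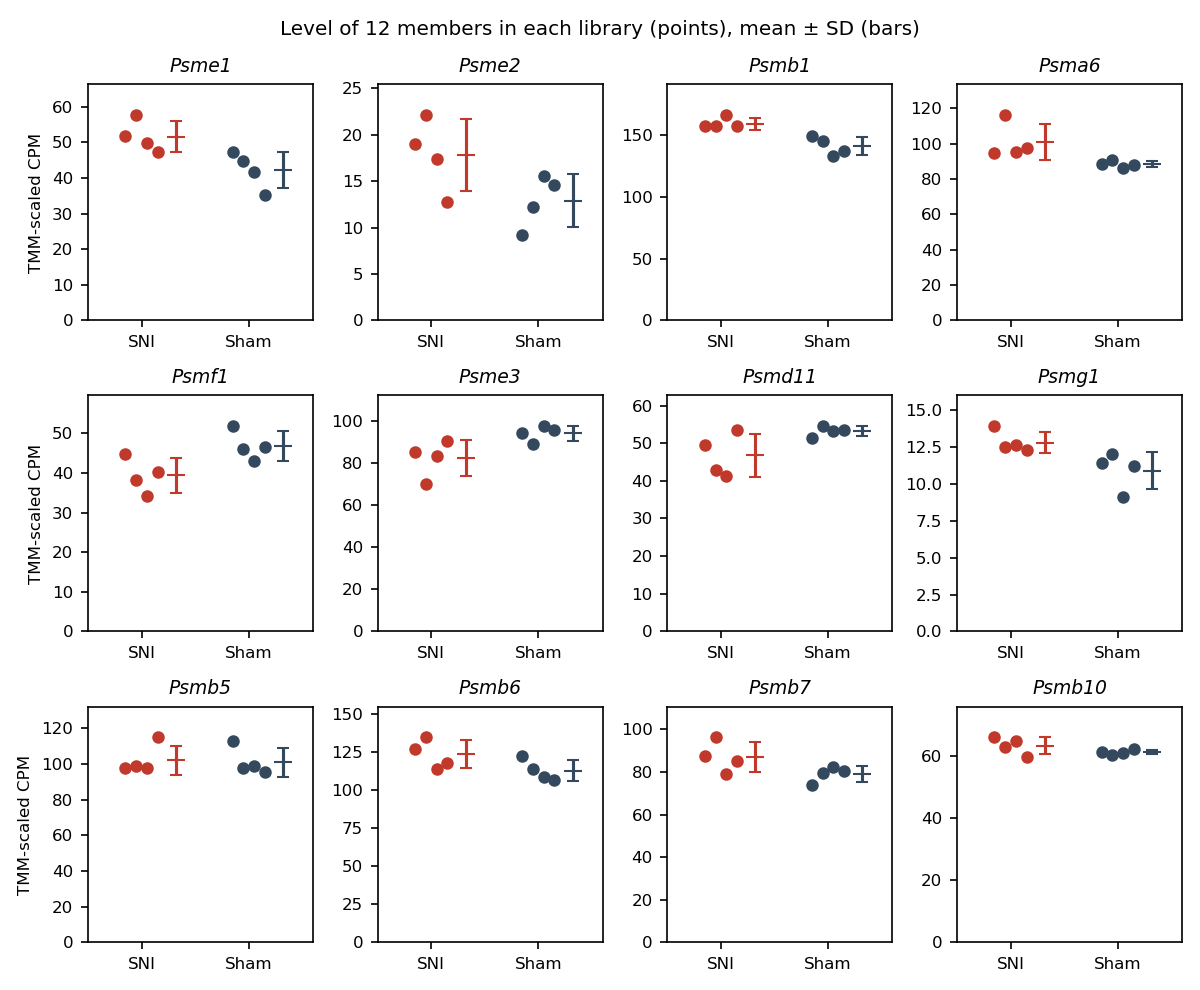
TMM-scaled CPM of 12 members in each SNI and Sham library (points), with the group mean and SD beside them (n = 4 libraries per group). The top row holds Psme1, Psmb1 and Psma6, whose SNI values lay above the Sham values, and Psme2, whose groups overlap. The proteolytic subunits in the bottom row overlap between groups.

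The ATPases of the 19S base unfold the substrate. Their 6 genes ran from -0.01 (Psmc4) to 0.11 (Psmc1) on the log2 fold change scale, and 5 of them lay above 0. Psmc1 had 165, 197, 170 and 166 CPM in SNI replicates 1 to 4, against 162, 157, 160 and 168 CPM in Sham replicates 1 to 4. SNI replicate 2 was the high library, and SNI replicates 1 and 4 lay inside the Sham range. Psmc4 had 89.3, 87.5, 78.7 and 88.0 CPM in the SNI libraries, against 88.7, 89.0, 86.5 and 83.0 CPM in the Sham libraries. Their edgeR adjusted p were 0.450 for Psmc1 and 0.932 for Psmc4, and without SNI replicate 2 the log2 fold change of Psmc1 was 0.05.

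The other base subunits are Psmd1 and Psmd2, large scaffolds that dock ubiquitin-binding shuttles, and Psmd4, a ubiquitin receptor. Psmd1 had 97.8, 107, 92.8 and 112 CPM in the SNI libraries, against 90.6, 84.8, 101 and 94.5 CPM in the Sham libraries. Psmd2 had 205, 191, 189 and 220 CPM in the SNI libraries, against 208, 212, 236 and 223 CPM in the Sham libraries. The paired scaffolds thus had estimates of opposite sign, 0.14 for Psmd1 and -0.13 for Psmd2, each with groups that overlapped and an interval that includes 0. Without SNI replicate 4 the value of Psmd1 was 0.09. Exons of Psmd1 overlap Gm21972 on the same strand and Htr2b on the opposite one, so its value is uncertain. Psmd4 had a log2 fold change of 0.10.

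The lid holds Psmd14, the enzyme that cuts ubiquitin from the substrate (log2 fold change -0.09), among 8 genes that ran from -0.18 to 0.09. Psmd11, a lid scaffold, was the lowest. It had 49.6, 42.8, 41.3 and 53.6 CPM in SNI replicates 1 to 4, against 51.4, 54.5, 53.3 and 53.6 CPM in Sham replicates 1 to 4. SNI replicates 2 and 3 were the low libraries, while SNI replicate 4 was at the Sham level. Psmd11 had a log2 fold change of -0.18 ± 0.0899 (SE, edgeR adjusted p = 0.255), and without SNI replicates 2 and 3 it was -0.04. Psmd6, another scaffold of the lid, was the highest, with 82.9, 96.7, 77.7 and 86.7 CPM in the SNI libraries, against 81.5, 89.0, 77.8 and 76.2 CPM in the Sham libraries.

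Assembly chaperones bind only while the particle is being built. For the 19S base these are Psmd5, Psmd9 and Psmd10. Psmd5 had 51.8, 55.7, 57.3 and 54.5 CPM in the SNI libraries, against 48.0, 50.3, 52.6 and 48.5 CPM in the Sham libraries, with SNI replicate 1 inside the Sham range (log2 fold change 0.14, edgeR adjusted p = 0.307). Psmd9 had 35.6, 30.9, 30.0 and 23.0 CPM in the SNI libraries, against 32.2, 33.5, 29.6 and 29.9 CPM in the Sham libraries. Its SNI values held both the highest and the lowest of the 8 libraries, and its log2 fold change was -0.07.

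Psmg1 to Psmg4 build the alpha ring of the core. Psmg1 had 13.9, 12.5, 12.6 and 12.3 CPM in SNI replicates 1 to 4, against 11.4, 12, 9.10 and 11.2 CPM in Sham replicates 1 to 4, with no overlap between groups. Its log2 fold change was 0.23 ± 0.123 (SE, edgeR adjusted p = 0.297). Psmg2, its partner, had 0.18. Psmg4 had 7.25, 10.2, 9.45 and 8.13 CPM in the SNI libraries, against 7.40, 9.10, 9.16 and 9.75 CPM in the Sham libraries, and a log2 fold change of -0.02. These 4 genes were among the scarcest members, and their intervals were wide, with a median half-width of 0.281 beside 0.169 for the core subunits.

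By p, the caps Psme1 and Psme2 and the inhibitor Psmf1 came first among the members. The core subunits Psmb1 and Psma6 followed, ahead of the cap Psme3. Psme1 and Psme2 encode the alpha and beta subunits of the PA28 ring, which interferon induces. In GRCm38 they lie close together on chromosome 14, Psme1 from 55578123 to 55581529 on the plus strand and Psme2 from 55587441 to 55591113 on the minus strand. Psme1 had 51.9, 57.6, 49.9 and 47.2 CPM in SNI replicates 1 to 4, against 47.2, 44.7, 41.8 and 35.3 CPM in Sham replicates 1 to 4. The lowest SNI and the highest Sham value both rounded to 47.2, so the groups only just separated. The means were 51.6 ± 4.39 CPM in SNI and 42.2 ± 5.13 CPM in Sham (SD, n = 4 libraries each). Psme1 had a log2 fold change of 0.29 ± 0.0979 (SE), with a 95% interval of 0.08 to 0.50 and an edgeR adjusted p of 0.0987. Over 20 alternative fits the adjusted p of Psme1 ran from 0.0592 to 0.485. Exons of Psme1 overlap Emc9 on the opposite strand, which had a log2 fold change of 0.19 (edgeR adjusted p = 0.295).

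Psme2 had 19, 22.1, 17.4 and 12.8 CPM in the SNI libraries, against 9.16, 12.2, 15.6 and 14.6 CPM in the Sham libraries. SNI replicate 4 lay inside the Sham range. Its log2 fold change was 0.46 ± 0.179 (SE, edgeR adjusted p = 0.154). Psme2b, on chromosome 11, is a copy of Psme2, and the transcript of Psme2b is 96.2% identical to that of Psme2 over 837 bases, so reads may have been divided between them. It had 8.98, 9.31, 13.7 and 14.4 CPM in the SNI libraries, against 11.7, 12.4, 7.52 and 10.2 CPM in the Sham libraries. Exons of Psme2b overlap 9930111J21Rik1 on the same strand, so its values are uncertain.

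In both groups Psme2b tended to be higher in the libraries where Psme2 was lower. Their sum, formed after these values were seen, was 27.9, 31.4, 31.1 and 27.2 CPM in SNI replicates 1 to 4, against 20.9, 24.6, 23.1 and 24.8 CPM in Sham replicates 1 to 4. The sums did not overlap between groups, as held for 12.7% of all genes tested (5.64% with SNI higher). Reads of Psme2b may belong in part to the gene that overlaps it, so the sum is uncertain too. With the counts of both genes added before the fit, also chosen after seeing the data, the log2 fold change was 0.33 with a 95% interval of 0.13 to 0.54. The edgeR adjusted p was 0.0554, which did not pass.

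The other caps had lower estimates. Psme3, which forms a nuclear ring, had 85.2, 70.1, 83.5 and 90.3 CPM in SNI replicates 1 to 4, against 94.1, 89.0, 97.4 and 95.7 CPM in Sham replicates 1 to 4. Its SNI replicate 2 was the lowest library, and SNI replicate 4 overlapped the Sham range (log2 fold change -0.19 ± 0.0843 SE, edgeR adjusted p = 0.200). Without SNI replicate 2 the value of Psme3 was -0.12. Psme4, a single-chain cap, had a log2 fold change of -0.08.

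Psmf1, known as PI31, inhibits the core in purified systems, and its gene spans 151715812 to 151744186 on the minus strand of chromosome 2 (GRCm38). It had 44.9, 38.3, 34.1 and 40.3 CPM in SNI replicates 1 to 4, against 51.8, 46, 43.0 and 46.5 CPM in Sham replicates 1 to 4. Only SNI replicate 1 reached the Sham range. On the log2 scale the fold change was -0.25 ± 0.0951 (SE), with a 95% interval of -0.45 to -0.05 and an edgeR adjusted p of 0.146. Psmc3ip, the gene that is no subunit, had 2.17, 3.72, 3.79 and 3.31 CPM in the SNI libraries, against 3.12, 2.12, 2.34 and 2.24 CPM in the Sham libraries. Its exons overlap Mlx on the opposite strand. The interval of its log2 fold change, -0.11 to 0.93, was the widest of all members.

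The other 23 tested members had fold changes from -0.09 (Psmd14) to 0.18 (Psmg2) on the log2 scale, all with groups that overlapped, and the smallest of their edgeR adjusted p was 0.363 (Psmg2). Exons of Psmc3 overlap those of Slc39a13, and exons of Psmd13 those of Sirt3, both on the opposite strand, so these values are uncertain too. In all, 13 members had exon overlap in the annotation. Those not named for it above are Psma4, Psma5, Psmb5, Psmd3, Psmd9 and Psmg3, and the same uncertainty holds for them.

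Members tended to be high in the same library. SNI replicate 2 was the highest SNI library for 27 of the 46 members (58.7%), against 28.0% of all genes tested. Over all 8 libraries it was the highest for 17 of the 31 core subunits (54.8%), against 17.9% of all genes. The mean over members of log2 CPM, taken relative to each gene's mean over the 8 libraries, was 0.003, 0.103, -0.010 and 0.007 in SNI replicates 1 to 4, against 0.006, -0.002, -0.059 and -0.049 in Sham replicates 1 to 4. For the alpha subunits SNI replicate 2 had 0.191, and the other 3 SNI libraries (-0.074 to -0.008) lay within the Sham range (-0.087 to 0.054). Without SNI replicate 2 the median log2 fold change of the members was 0.02, with 25 of 46 above 0.

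Cell type markers also differed between libraries, and their part in these values was not tested beyond the fit given here. The 10 striatal medium spiny neuron markers, all 10 in the table, summed to 377 to 894 CPM in SNI libraries and 255 to 499 CPM in Sham libraries, with SNI replicates 2 (894) and 4 (881) highest. The 8 excitatory neuron markers, all 8 in the table, summed to 4310 to 5800 CPM in SNI libraries, lowest in SNI replicate 2, and to 5690 to 6520 CPM in Sham libraries. The 7 microglial markers summed to 318 to 460 CPM in SNI libraries and 305 to 383 CPM in Sham libraries, while their mean log2 level relative to the 8 libraries ran the other way, -0.386 to 0.143 in SNI and 0.0418 to 0.328 in Sham. One of them, Cx3cr1, had the lowest log2 fold change of all genes tested, -4.74. It counts as much as each other gene in that mean and pulls it down in SNI. The mean is therefore not read as a lower level of microglial markers in general. The 2 of 5 blood leukocyte markers in the table summed to 3.56 to 17.3 CPM in SNI libraries, highest in SNI replicate 3, and to 3.35 to 3.79 CPM in Sham libraries. The 3 of 4 choroid plexus markers in the table summed to 5.91 to 7.06 CPM in SNI libraries and 1.77 to 2.99 CPM in Sham libraries. Since every row has a count in each library, a marker at 0 in any library would have no row. With the striatal value of each library as a covariate, the median log2 fold change of the members was 0.01, with 24 of 46 above 0. That fit called few genes of any kind (14 higher and 35 lower of 13911), and its 0 called members are read against that. Psme2 had 0.64 in it, with the smallest adjusted p of the members (0.329), and Psme1 had 0.27.

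**Figure D3:**
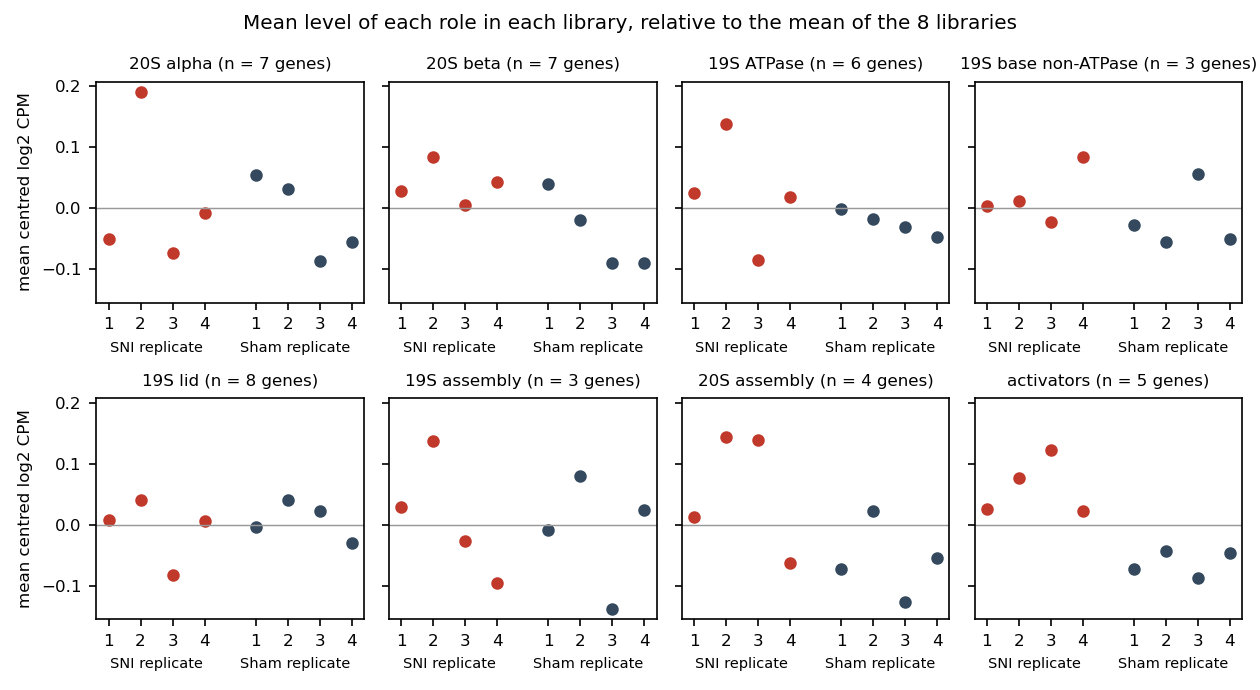
Mean over the genes of each role of log2 CPM relative to the mean of the 8 libraries (y axis), for SNI replicates 1 to 4 and Sham replicates 1 to 4 (x axis). SNI replicate 2 is highest for the alpha subunits (0.191) and the ATPases (0.138). The activators lie at 0.023 to 0.123 in SNI and -0.087 to -0.043 in Sham, a mean over genes with estimates of both signs.

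The levels of members differed by role. Per kilobase of merged exons, the median level over subunits (group means) was 32.8 CPM per kb in SNI and 33.2 in Sham for the 8 alpha genes. It was 45.6 in SNI and 44.5 in Sham for the 7 beta genes, 53.5 in SNI and 53.0 in Sham for the ATPases, and 29.2 in SNI and 28.9 in Sham for the lid. The role medians of the chaperones were lower, at 10.6 in SNI and 9.21 in Sham for the 20S chaperones and 7.58 in SNI and 6.89 in Sham for the 19S chaperones.

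Psmc5, an ATPase of the base, had the highest level per length, 153 ± 8.58 CPM per kb in SNI and 147 ± 5.76 in Sham (SD, n = 4 libraries each). Psmb5 came next, at 114 ± 9.26 in SNI and 113 ± 8.95 in Sham, though Psmb4 took that place with the longest transcript as the length (141 in SNI and 142 in Sham). Among the core subunits Psmd11 was the lowest, at 7.34 ± 0.904 in SNI and 8.34 ± 0.208 in Sham. The span from lowest to highest core subunit was 20.8-fold in SNI, and 9.75-fold with the longest annotated transcript as the length, so it depends on the length used. Psmb10 reached 37.1 CPM per kb in SNI and 35.9 in Sham, above Psmb7 with 25.4 in SNI and 23.1 in Sham. Before division by length the order was the reverse. Psmb10 had mean levels of 63.3 CPM in SNI and 61.2 CPM in Sham, against 87.0 and 79.1 CPM for Psmb7. The order per length thus rests on the annotated exons, 1705 bases for Psmb10 and 3421 for Psmb7.

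**Figure D4:**
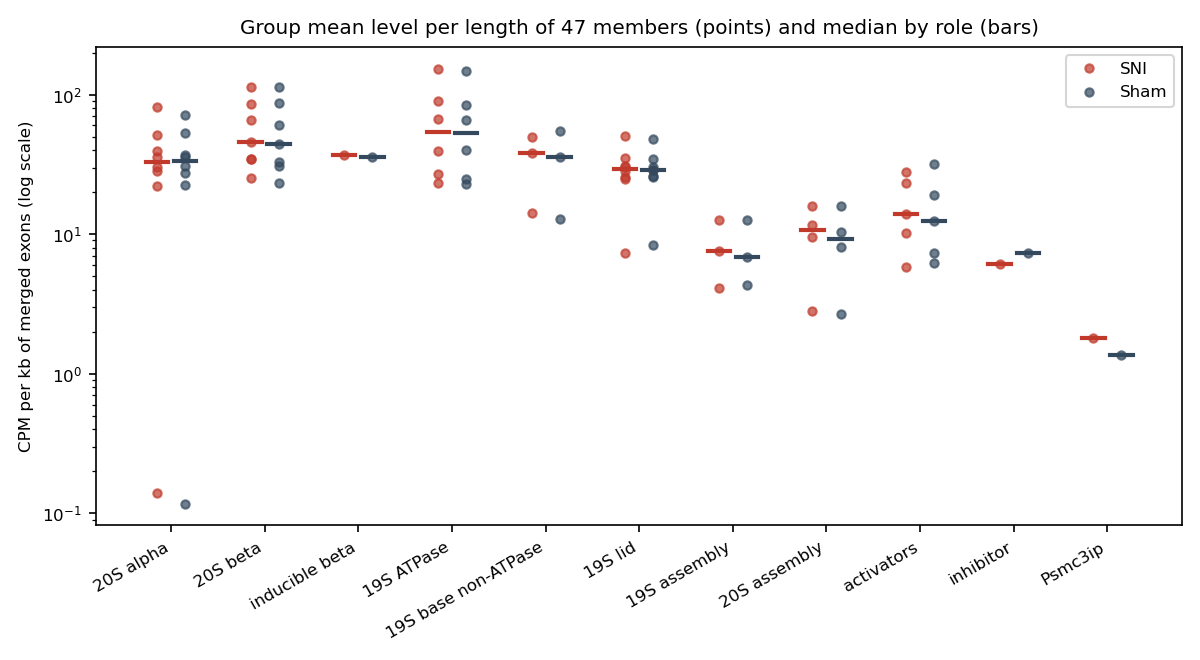
Mean level per kilobase of merged exons in SNI and Sham (points, log axis) for the 47 members by role, with the median of each role (bars). The medians of the core roles lie above those of the chaperones, though Psmd11 (7.34 in SNI) lies below several chaperones, and Psma8 lies lowest, at 0.139 CPM per kb in SNI and 0.117 in Sham.

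Members varied little between libraries of a group. The median coefficient of variation over the 46 members was 8.44% in SNI and 5.87% in Sham, beside 11.9% in SNI and 9.35% in Sham over all genes tested. The members were also more abundant, with a median level of 86.7 CPM against 26.2 CPM for all genes tested. The steadiest was Psmb10 in Sham, at 1.18%.

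Other genes of the ubiquitin-proteasome pathway were read from a separate list, of which 29 were tested. Of these, 2 were higher in SNI and 0 lower at an FDR of 0.05, against 2.15% and 2.87% of all genes. Over the list, 11 genes had a log2 fold change above 0 and 18 below it, with a median of -0.04. All 4 SNI values lay above the Sham values for 2 of the 29 and below them for 2 (Ubqln1 and Ubqln4). Of all genes tested, 5.64% and 7.02% separated in these ways. Rps27a, which encodes a fusion of ubiquitin with a ribosomal protein, had 103, 154, 155 and 119 CPM in SNI replicates 1 to 4, against 94.4, 102, 78.2 and 97.5 CPM in Sham replicates 1 to 4. The groups did not overlap, though SNI replicate 1 lay just above the Sham range. Its log2 fold change was 0.52 ± 0.129 (SE, edgeR adjusted p = 0.0359). That call was lost without SNI replicate 2 (0.111) or 3 (0.11), or Sham replicate 1 (0.0798), 3 (0.108) or 4 (0.0622). With the striatal marker value as a covariate the log2 fold change was 0.39 for Rps27a (adjusted p = 0.433) and 0.47 for Nfe2l2 (adjusted p = 0.437).

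Nfe2l2, known as NRF2, a transcription factor of the oxidative stress response that can act on proteasome genes, also rose. It had 11.8, 17.2, 21 and 14.6 CPM in SNI replicates 1 to 4, against 10.7, 10.6, 9.60 and 12.3 CPM in Sham replicates 1 to 4. SNI replicate 3 was the highest and SNI replicate 1 lay inside the Sham range. Its log2 fold change was 0.58 ± 0.158 (SE, edgeR adjusted p = 0.0466), and 0.43 without SNI replicate 3 (0.154). Its relative Nfe2l1 had 346 ± 33.2 CPM in SNI and 366 ± 24.3 CPM in Sham (SD, n = 4 libraries each), with an edgeR adjusted p of 0.635. The call of Nfe2l2 was also lost without SNI replicate 2 (0.106) or 4 (0.0523), or Sham replicate 1 (0.102), 2 (0.092) or 3 (0.139).

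Uchl5, a ubiquitin hydrolase of the 19S base, had the third smallest p of this list. It had 48.6, 57.3, 52.9 and 49.4 CPM in the SNI libraries, against 41.7, 41.0, 44.4 and 47.3 CPM in the Sham libraries, with no overlap. Uchl5 had a log2 fold change of 0.26 ± 0.0840 (SE), and the edgeR adjusted p of 0.0915 did not pass. Its docking site on the particle, Adrm1, had -0.08, and Pomp, the chaperone that matures the beta ring, had 0.03.

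Because Nfe2l1 and Nfe2l2 bind the antioxidant response element, member promoters were searched for its core. The 250 bases before each RefSeq gene start (GRCm38.p6) were searched on both strands for TGACNNNGC. Of 42 promoters of 39 matched members, 5 held it (11.9%), against 10.2% of all 32851 promoters. The 5 matches are shown so that their letters can be read beside the values of these genes. Each is written 5′ to 3′ on the gene's strand with the match in capitals.
Psmb5, chr14:54618018-54618058, minus strand: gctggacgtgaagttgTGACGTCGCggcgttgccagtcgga
Psmb6, chr11:70525332-70525356, plus strand: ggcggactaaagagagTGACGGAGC
Psmc6, chr14:45329581-45329621, plus strand: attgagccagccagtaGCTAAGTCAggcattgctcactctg
Psmd12, chr11:107479278-107479305, plus strand: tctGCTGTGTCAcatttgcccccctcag
Psmd9, chr5:123228143-123228183, plus strand: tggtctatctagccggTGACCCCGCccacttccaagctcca

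In Psmc6 and Psmd12 the match is on the opposite strand, so the capitals show its reverse complement. The log2 fold changes of these 5 genes were 0.01 for Psmb5, 0.13 for Psmb6, 0.10 for Psmc6, 0.06 for Psmd12 and -0.07 for Psmd9, and 0 of the 5 passed. Their edgeR adjusted p ran from 0.383 (Psmb6) to 0.954 (Psmb5). A match in these letters is a description and does not show binding.

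Other motifs were searched in the same windows, on both strands, each counted on its own, so matches of different motifs may overlap. The CCAAT box was in 31.0% of member promoters, against 33.8% of all promoters. GGGCGG, the GC box, was in 52.4% of member promoters, against 32.7% of all promoters. No share was taken over promoters of the tested genes alone, so this gap is not read as particular to proteasome genes. For the interferon-induced genes Psme1 and Psme2, 2 cores added after seeing the values were searched, the interferon-stimulated response element (GAAA, any 2 bases, GAAA) and the gamma-activated site (TTCNNNGAA). They were in 3 (7.14%) and 1 (2.38%) of the 42 member promoters, against 2.98% and 7.02% of all promoters. The first share lay above that of all promoters and the second below it. Each rests on too few promoters to read a direction. The windows of Psme1 and Psme2 held neither. A Psme1 window began at 55578244, which is inside the gene span given above (from 55578123). Its absence of a match therefore does not cover the bases before that start. Interferon control of these genes was not tested.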

How the data were processed

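Bulk poly(A) RNA of 4 SNI and 4 Sham libraries was analysed. The authors deposited whole-number counts of reads per gene symbol. Per the submitters' processing notes, fastp, HISAT2 and StringTie were used on GRCm38. For versions, annotation and counting method, the sources used here give nothing. Every row has at least 1 count in each of the 8 libraries.

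All genes were fitted together with edgeR 4.0.16 in R 4.3.3 (filterByExpr, TMM, robust quasi-likelihood F-test, two-sided, group as the only term, Benjamini-Hochberg, FDR 0.05). SE is the log2 fold change over the square root of F, and 95% intervals use the same degrees of freedom. Counts cover 14735602 to 19602487 reads per library, and intervals cover the spread between libraries. DESeq2 1.42.0 and limma 3.58.1 voom were alternatives. On simulated counts for this comparison (13844 genes), the test found 46.3% of the 67 genes with a log2 fold change of 0.5, 83.3% of the 66 with 1 and 100% of the 64 with 2, and 11 among its 161 calls were false. Exonic lengths and coordinates come from GENCODE M21 (GRCm38), in which all 47 members matched, and promoters from RefSeq.

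Members and gene lists were chosen with earlier results of these data known. Values in each library are given for the 8 members of smallest p, the proteolytic subunits, Psmb10, Psme1 and Psme2, and the highest and lowest fold change in each role. Of the other pathway list, genes at FDR 0.05 and the 3 of smallest p are named. Other genes were named after their values were seen.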

Additional observations from a re-analysis of the deposited data

Results flagged for a closer look

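Over 46 groups of 4 libraries (23 named members, SNI and Sham), 4 held a library set apart from the other 3 by Dixon's test. Chance flags about 1 in 20 groups where these are independent and not chosen by value. Here the genes were chosen partly by their values and share the same libraries, so that rate is no measure for them. All 4 flagged groups were SNI groups. SNI replicate 2 had 116 CPM of Psma6, with the other SNI libraries at 94.4 to 97.3 CPM, and 197 CPM of Psmc1, with the others at 165 to 170 CPM. SNI replicate 3 had 166 CPM of Psmb1, where the others rounded to 157 CPM. SNI replicate 4 had 115 CPM of Psmb5, with the others at 97.5 to 98.8 CPM.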

How the results depend on the processing

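Members called at FDR 0.05 numbered 0 higher and 0 lower in all 20 alternative fits over all genes, with a smallest adjusted p of 0.0522 (Psme2 without SNI replicate 4). At FDR 0.1 there was 1 higher member, and at an unadjusted p under 0.05 there were 4 higher and 2 lower. The median log2 fold change of members was 0.09 with library totals and 0.02 to 0.07 with each library left out. All genes called numbered 299 higher and 399 lower. They became 511 and 654 with DESeq2, 14 and 35 with the striatal covariate, 50 and 128 without SNI replicates 2 and 3, 591 and 688 at FDR 0.1, and 1439 and 1492 at an unadjusted p under 0.05. With each library left out they ran from 90 to 405 and from 168 to 453. The replicate block gave 212 and 306, 0 members and 0 pathway genes. The labels do not say whether same-numbered libraries were paired. Deviations from group means correlated by -0.148 to -0.0056 for same-numbered libraries and by -0.179 to 0.218 for the other pairs. These values cannot decide whether a batch was shared. The 2 pathway genes called became 0 with voom, the striatal covariate and without SNI replicates 2 and 3, and 0 to 2 with each library left out. At an unadjusted p under 0.05, 1 pathway gene was lower. The ratio of Psmb10 to Psmb7 ran from -0.14 to -0.03, and the span of levels per length became 9.75-fold with the longest transcript.

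Of 23 named members, 6 near 0 changed sign without a call. Upper-quartile scaling gave 0.01 for Psmb4, Psmc4 and Psmg4. Library totals gave 0.01 for Psma5, 0.04 for Psmb4 and 0.03 for Psmc4 and Psmg4. Psmb5 had -0.11 and Psmd9 0.08 with the striatal covariate, Psmb5 -0.05 with length offsets, and Psmc4 0.03 without SNI replicates 2 and 3. With each library left out, Psmb4 ran from -0.03 to 0.01, Psmb5 from -0.05 to 0.07, Psmc4 from -0.04 to 0.02, Psmd9 from -0.16 to 0.04 and Psmg4 from -0.10 to 0.06. The cause of each shift was not tested. Depth limits the scarce members: Psma8, at 1 to 11 counts per library, gave no test.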
